A study of Mus musculus with 4 samples.

Results

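The genes described here are 9 inhibitors that act within the transforming growth factor beta (TGFb) pathway and are known as its negative feedback: Ldlrad4, Pmepa1, Smad7, Smad6, Smurf1, Smurf2, Skil, Ski and Tgif1. They were taken by gene symbol from a list that was chosen with earlier results of these data known. Probes that carry an older name were included (Tmepai for Pmepa1, D18Ertd653e for Ldlrad4, Tgif for Tgif1). The arrays hold 16 probes for them among 41174 probes that are not controls. All 9 genes were among the 19901 genes tested, since each had a probe well above background in at least 3 of the 26 array channels. Smad6 entered that set through 5 channels, whereas the tested probes of the other 8 genes were well above background in every channel. No tested probe was saturated.

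TGFb binds a pair of receptor kinases at the cell surface, which phosphorylate Smad2 and Smad3. These join Smad4 and act on target genes in the nucleus, and several of those targets encode inhibitors that dampen the pathway again. In T cells TGFb is needed to induce the regulatory T cell factor Foxp3, and together with interleukin 6 (IL6) it can direct cells to the Th17 fate.

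The study set regulatory T cells (Treg) against effector T cells (T-effector) from mouse lymph node CD4+ cells, on 13 two-colour arrays that each carried a Treg sample in one dye and a T-effector sample in the other. Cells were stimulated on plate-bound anti-CD3 at 1 ug/ml for 4 days, and every culture had IL2 at 100 units/ml for 3 of them. The conditions differed in what was added to IL2: TGFb at 4 ng/ml with IL6 at 25 ng/ml (4 arrays), TGFb alone (3 arrays), IL6 alone (3 arrays) or nothing more (IL2, 3 arrays). Strain, genotype, age, the way in which both cell types were separated, and whether arrays came from separate animals are not given in the sources used here, so the p-values below cover only how far these arrays scatter, and that scatter may be technical.

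Levels are log2 intensities after background correction, with an offset of 50 added to each signal before the log is taken. The offset makes differences smaller for dim probes. A difference is given as log2 ± its standard error from a model fitted across all genes with limma, which also held a dye term, and a gene was called when its p-value, adjusted by Benjamini-Hochberg over all 19901 genes, was below 0.05. Treg were set against T-effector cells through the ratio on each array. In bulk RNA, fewer cells that express a gene and less RNA per cell cannot be told apart.

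The arrays came from 5 slides, lettered A to E here, and conditions were spread unevenly over them. Between 38.9% and 69.7% of probes were well above background in a Treg channel, and between 41.7% and 67% in a T-effector channel. The 3 arrays of slide B stood apart by their fitted Cy3 background, at 101 to 102 intensity units against -3.93 to 18.1 on the other 10 arrays. The 4 arrays of slide E stood apart by a spatial pattern, since position on the slide followed 32.4% to 55% of the variance of their log ratios, against 1.69% to 19.7% on the other 9 arrays. Marker genes matched the labels: Foxp3 exceeded its T-effector level in Treg with TGFb and IL6 (2.16 ± 0.14, adjusted p = 1.48e-05) and in the other 3 conditions. The summed intensity of the 6 Treg markers was 24370 to 43120 in Treg channels and 17950 to 23030 in T-effector channels, while 6 T cell markers summed to 22630 or more in all groups.

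Promoter windows of 280 bases, from 250 bases before the start of the gene to 30 bases within it, were available for 5 of the 9 genes (RefSeq, build GRCm38.p6). Those of Ski and Tgif1 are shown because they encode Smad corepressors that were called higher with TGFb in Treg in both comparisons. Neither Tgif1 call held under every alternative tried. The Smad6 window is shown because its probe stayed near background. Capitals mark matches, on either strand, to letters that Smad proteins are known to bind: CAGAC, the palindrome GTCTAGAC, which holds no CAGAC on either strand, and the GC-rich GGCGC. The Ski window lies on the minus strand at chr4:155222506-155222785, the Smad6 window on the minus strand at chr9:64022030-64022309, and the first of 5 Tgif1 windows on the minus strand at chr17:70853503-70853782.
Ski: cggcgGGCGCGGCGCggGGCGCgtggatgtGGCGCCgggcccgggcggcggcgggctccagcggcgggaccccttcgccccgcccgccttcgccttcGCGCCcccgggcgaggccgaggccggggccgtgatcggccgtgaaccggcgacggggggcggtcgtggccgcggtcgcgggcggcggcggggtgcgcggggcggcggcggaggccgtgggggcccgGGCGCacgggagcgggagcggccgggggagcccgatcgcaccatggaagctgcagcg
Smad6: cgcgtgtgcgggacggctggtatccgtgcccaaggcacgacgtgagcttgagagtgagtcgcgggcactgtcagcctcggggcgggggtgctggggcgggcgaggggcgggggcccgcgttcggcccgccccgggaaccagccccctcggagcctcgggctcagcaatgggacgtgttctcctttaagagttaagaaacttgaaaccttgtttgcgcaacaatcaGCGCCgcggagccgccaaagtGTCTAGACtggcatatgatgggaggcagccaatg
Tgif1: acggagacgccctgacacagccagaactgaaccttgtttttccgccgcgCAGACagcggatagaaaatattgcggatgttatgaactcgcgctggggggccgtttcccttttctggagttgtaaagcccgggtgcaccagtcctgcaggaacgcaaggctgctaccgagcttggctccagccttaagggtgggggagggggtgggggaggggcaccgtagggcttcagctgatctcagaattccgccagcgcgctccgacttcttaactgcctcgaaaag
The Ski window held 7 matches to GGCGC, some of them overlapping, and 0 to CAGAC. The Smad6 window held 1 GTCTAGAC at position -4 and 1 GGCGC at -25, counted from the start of the gene. The Tgif1 window held 1 CAGAC at -201, and 3 of its 5 windows held that motif. Over 32851 mouse windows of this length, 46.8% held CAGAC, 35.1% held GGCGC and 0.192% held GTCTAGAC. These matches describe the letters and no binding was measured.

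With TGFb these inhibitors rose or did not pass the test in both cell types, and none of the 9 fell in any comparison with and without TGFb. In Treg, 7 of the 9 rose with TGFb against IL2 (Ldlrad4, Skil, Smad7, Pmepa1, Ski, Smurf1 and Tgif1). Of all genes tested 7.79% passed this comparison and 3.66% passed it upwards, and the median difference was 1.05 for the 9 genes against -0.01 for all genes. In Treg with TGFb and IL6 against IL6, 6 of the 9 rose, where 10.1% of all genes were called and 4.87% upwards, and Smurf1 was the one gene of the first 7 that did not pass. In T-effector cells 3 of the 9 rose with TGFb against IL2 (Skil, Smad7 and Ldlrad4; 4.31% of all genes called, 1.88% upwards). With TGFb and IL6 against IL6, 5 of the 9 rose in T-effector cells (Ldlrad4, Smad7, Skil, Ski and Pmepa1; 11.2% called, 5.20% upwards). Since the 9 were chosen with earlier results of these data known, these counts describe them and are no independent test of the group.

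**Figure D1:**
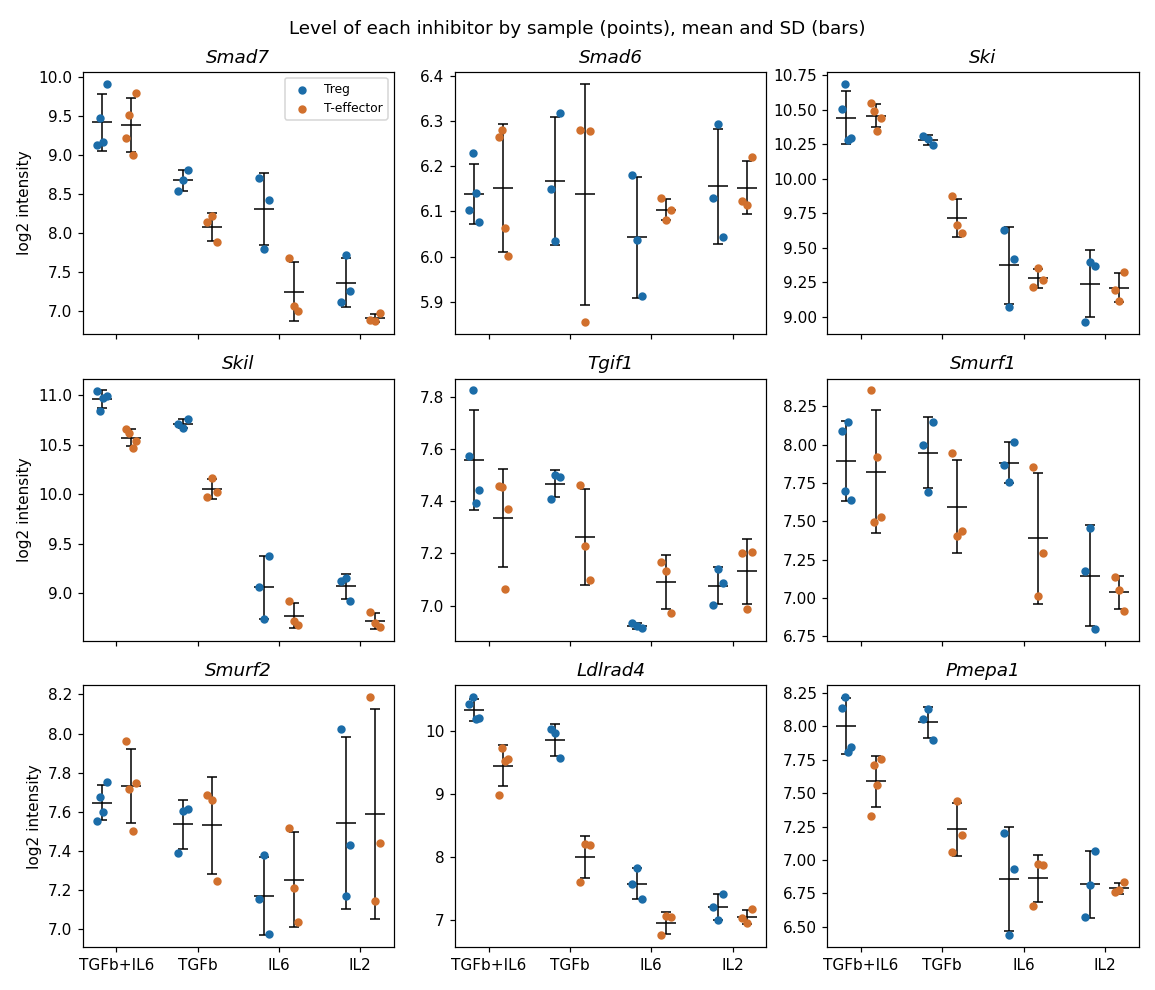
Log2 intensity of each of the 9 inhibitors on each array, in Treg (left of each pair) and T-effector channels, with TGFb and IL6, TGFb, IL6 and IL2. Points are arrays, and the black marks are group means with their SD; the Ldlrad4 means are 10.33 and 9.85 in Treg with TGFb and IL6 and with TGFb, against 7.58 and 7.20 with IL6 and with IL2, while all Smad6 points lie near background.

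Ldlrad4 and Pmepa1 encode related membrane proteins that bind Smad2 and Smad3 and keep them from the receptor. The tested Ldlrad4 probe lies on chromosome 18 and the only Pmepa1 probe spans an intron at chr2:172978810-173020495 (build mm7, minus strand), as the files give it; exon annotation of that build was not used here. Ldlrad4 in Treg had log2 intensities of 10.42, 10.53, 10.18 and 10.19 with TGFb and IL6, 10.03, 9.96 and 9.56 with TGFb, 7.58, 7.83 and 7.33 with IL6, and 7.20, 7.00 and 7.41 with IL2. Ldlrad4 in T-effector cells had 8.98, 9.73, 9.52 and 9.55 with TGFb and IL6, 7.61, 8.20 and 8.18 with TGFb, 6.76, 7.06 and 7.04 with IL6, and 7.04, 6.95 and 7.17 with IL2. Every Treg array with TGFb lay above every Treg array without it, and the same held in T-effector cells.

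In Treg the Ldlrad4 difference was 2.79 ± 0.17 (6.9-fold, adjusted p = 1.41e-10) with TGFb and IL6 against IL6, and 2.57 ± 0.18 (5.96-fold, adjusted p = 2.92e-09) with TGFb against IL2. In T-effector cells these were 2.46 ± 0.17 (5.49-fold, adjusted p = 1.46e-09) and 1.02 ± 0.18 (2.02-fold, adjusted p = 0.00148). The TGFb effect in T-effector cells was larger with IL6 than without it, by 1.44 ± 0.25 (adjusted p = 0.00281), and Ldlrad4 was the only one of the 9 for which that difference passed (1.00% of all genes called, 0.714% upwards). In Treg the same difference passed for 0 of the 9 by limma (0.935% called), with 1 of the 9, Smurf1, at an unadjusted p under 0.05 (-0.86 ± 0.31, unadjusted p = 0.0104). The T-effector difference of Ldlrad4 was 1.02 (adjusted p = 0.197) when flagged spots were also used to fit the background. Smad7 gave 1.06 in T-effector cells and did not pass. With the slide fitted as a block, Smad7 (1.13, adjusted p = 0.0338) and Skil (0.66, adjusted p = 0.0291) passed there beside Ldlrad4 (1.23, adjusted p = 0.00159). Ldlrad4 in Treg was already high with TGFb alone, and adding IL6 to it gave 0.52 ± 0.17, which did not pass (adjusted p = 0.0857). It gave 0.52 ± 0.15 (adjusted p = 0.0468) with the shared slide and array number of the TGFb arrays as a block. The same difference also passed with the slide as a block (0.48, adjusted p = 0.0167) and with the spatial trend removed (0.54, adjusted p = 0.00951).

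A second, dimmer Ldlrad4 probe exceeded background clearly in 6 Treg and 4 T-effector channels. In Treg it moved the same way, by 1.11 ± 0.14 with TGFb and IL6 against IL6 (adjusted p over all probes = 1.09e-05) and by 0.61 ± 0.15 with TGFb against IL2 (0.0143). In T-effector cells it gave 0.82 with TGFb and IL6 against IL6, which passed, but 0.13 with TGFb against IL2, which did not. At this probe the TGFb effect in T-effector cells was larger with IL6 than without it by 0.69, which did not pass over all probes. The probe was well above background in 0 of 3 T-effector channels with TGFb and in 0 of 3 with IL2.

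Pmepa1 in Treg was 8.14, 8.22, 7.81 and 7.85 with TGFb and IL6, 8.06, 8.13 and 7.90 with TGFb, 7.20, 6.43 and 6.93 with IL6, and 6.57, 6.81 and 7.07 with IL2. Pmepa1 in T-effector cells was 7.33, 7.71, 7.56 and 7.75 with TGFb and IL6, 7.06, 7.44 and 7.19 with TGFb, 6.66, 6.97 and 6.96 with IL6, and 6.76, 6.77 and 6.83 with IL2. Treg arrays with TGFb did not overlap those without it, and neither did T-effector arrays, by a smaller margin. The Treg difference was 1.16 ± 0.19 (2.23-fold, adjusted p = 0.000201) with TGFb and IL6 against IL6 and 1.19 ± 0.20 (2.28-fold, adjusted p = 0.000392) with TGFb against IL2. In T-effector cells 0.72 ± 0.19 passed with TGFb and IL6 against IL6 (1.64-fold, adjusted p = 0.0151), a call lost without array 2 of TGFb and IL6 or array 3 of IL6. It was also lost without slide B (0.58, adjusted p = 0.123) and without slide E (0.71, adjusted p = 0.159). The same held with flagged spots kept in the background fit (0.49, adjusted p = 0.105) and with Agilent's processed signals (1.17, adjusted p = 0.0507). The T-effector difference of 0.46 with TGFb against IL2 did not pass (adjusted p = 0.239).

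**Figure D2:**
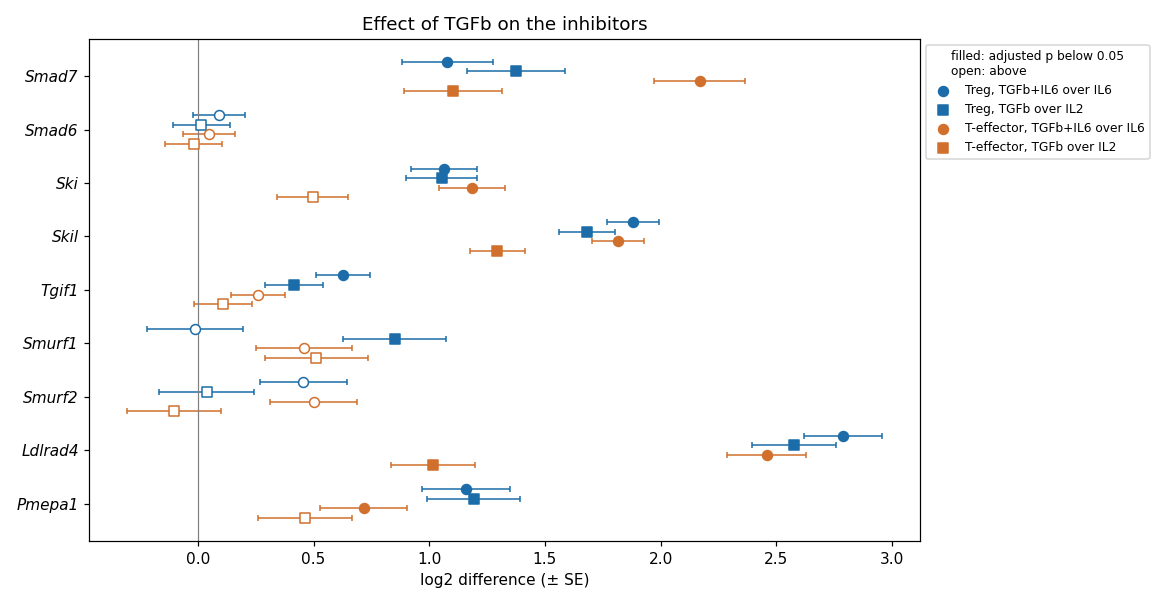
Difference in log2 intensity due to TGFb, with IL6 present and absent, for each of the 9 inhibitors in Treg and T-effector cells; points are fitted differences (filled where the adjusted p is below 0.05) and bars are standard errors. Ldlrad4 and Skil have the largest Treg differences, 2.79 and 1.88 with IL6 present and 2.57 and 1.68 without it.

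Smad7 and Smad6 are the inhibitory Smads: they occupy receptors in place of the signalling Smads, and Smad7 brings the ubiquitin ligases Smurf1 and Smurf2 to the receptor. The Smad7 probe lies on chromosome 18. Smad7 in Treg was 9.13, 9.48, 9.16 and 9.92 with TGFb and IL6, 8.54, 8.68 and 8.81 with TGFb, 8.71, 7.80 and 8.43 with IL6, and 7.12, 7.73 and 7.26 with IL2. Smad7 in T-effector cells was 9.22, 9.52, 9.01 and 9.80 with TGFb and IL6, 8.14, 8.22 and 7.88 with TGFb, 7.69, 7.06 and 7.01 with IL6, and 6.89, 6.88 and 6.98 with IL2. With TGFb and IL6 both cell types lay above all other groups, and Treg with IL6 overlapped Treg with TGFb but not Treg with IL2.

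The Smad7 difference in Treg was 1.08 ± 0.20 (2.11-fold, adjusted p = 0.000697) with TGFb and IL6 against IL6 and 1.37 ± 0.21 (2.59-fold, adjusted p = 0.000138) with TGFb against IL2. In T-effector cells it was 2.17 ± 0.20 (4.49-fold, adjusted p = 9.05e-08) and 1.10 ± 0.21 (2.15-fold, adjusted p = 0.00282). Smad7 was also the one inhibitor called with IL6 in the absence of TGFb. It rose in Treg by 1.01 ± 0.21 (2.01-fold, adjusted p = 0.0201), where 0.960% of all genes were called and 0.407% upwards. That call was lost without slide E (0.54, adjusted p = 0.698), without the dye term (0.94, adjusted p = 0.0551) and without array 1 or array 3 of IL2 or of IL6. Smurf1 gave 0.79 in the same Treg comparison and did not pass, but did with Agilent's processed signals (0.995, adjusted p = 0.0102). None of the 9 passed with IL6 against IL2 in T-effector cells (limma; 0.804% of all genes called; 0 of the 9 at an unadjusted p under 0.05), where Smad7 was 7.25 ± 0.38 (SD, n = 3) with IL6 and 6.91 ± 0.05 (SD, n = 3) with IL2.

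The Smurf ligases, which mark receptors and Smads for breakdown, passed in few comparisons. Smurf1 in Treg ranged over 7.64 to 8.15 with TGFb and IL6, 7.69 to 8.15 with TGFb, 7.76 to 8.02 with IL6, and 6.80 to 7.46 with IL2. It rose in Treg with TGFb against IL2 by 0.85 ± 0.22 (1.8-fold, adjusted p = 0.0189), a call lost without slide E (0.79, adjusted p = 0.0567), without array 3 of IL2 and without array 1 or 3 of TGFb, and gave -0.01 with TGFb and IL6 against IL6 (adjusted p = 0.984). A second Smurf1 probe (chr5:143908090-143909317, spanning an intron) differed, at 0.55 ± 0.12 with TGFb and IL6 against IL6 in Treg (adjusted p over all probes = 0.00275). Within a cell type, Smurf2 passed in no comparison of conditions unless the slide was fitted as a block. With that block it passed with TGFb and IL6 against IL6 in Treg (0.67, adjusted p = 0.0069) and in T-effector cells (0.72, adjusted p = 0.00367). Smurf1 passed there in T-effector cells too (0.68, adjusted p = 0.00223). Smurf2 was 7.64 ± 0.09 (SD, n = 4) and 7.17 ± 0.20 (SD, n = 3) in Treg with TGFb and IL6 and with IL6, and 7.54 ± 0.13 and 7.54 ± 0.44 (SD, n = 3 each) with TGFb and with IL2. Another Smurf2 probe rose by 0.58 ± 0.13 with TGFb and IL6 against IL6 in Treg (adjusted p over all probes = 0.00631).

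Smad6 is shown by 1 probe (chr9:63982002-63982061, mm7, minus strand) that exceeded background clearly in only 2 of 13 Treg and 3 of 13 T-effector channels. Its log2 intensity stayed at 5.86 to 6.32 in all groups, so no fold is given, and it passed in no comparison.

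Skil and Ski encode SnoN and Ski, corepressors that bind Smad complexes on DNA, and Skil is itself a known target of TGFb signalling. Skil in Treg was 11.04, 10.84, 10.97 and 10.99 with TGFb and IL6, 10.71, 10.67 and 10.76 with TGFb, 9.06, 8.74 and 9.38 with IL6, and 9.13, 9.16 and 8.93 with IL2. Skil in T-effector cells was 10.66, 10.62, 10.47 and 10.54 with TGFb and IL6, 9.97, 10.16 and 10.02 with TGFb, 8.92, 8.72 and 8.69 with IL6, and 8.81, 8.70 and 8.66 with IL2. The arrays with TGFb lay more than one log2 unit above those without it in Treg. The tested probe lies at chr3:30934287-30934346 (mm7, plus strand).

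In Treg Skil differed by 1.88 ± 0.11 (3.68-fold, adjusted p = 9.19e-11) with TGFb and IL6 against IL6 and by 1.68 ± 0.12 (3.21-fold, adjusted p = 3.05e-09) with TGFb against IL2. In T-effector cells it differed by 1.82 ± 0.11 (3.52-fold, adjusted p = 2.24e-10) and 1.29 ± 0.12 (2.45-fold, adjusted p = 5.35e-07). The second Skil probe gave smaller differences in the same direction, 1.27 ± 0.11 and 1.22 ± 0.12 in Treg and 0.86 ± 0.11 and 0.58 ± 0.12 in T-effector cells, all below 0.05 over all probes.

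Ski in Treg was 10.51, 10.69, 10.28 and 10.30 with TGFb and IL6, 10.31, 10.29 and 10.24 with TGFb, 9.63, 9.07 and 9.42 with IL6, and 8.96, 9.39 and 9.37 with IL2. Ski in T-effector cells was 10.55, 10.49, 10.35 and 10.44 with TGFb and IL6, 9.87, 9.67 and 9.61 with TGFb, 9.22, 9.35 and 9.26 with IL6, and 9.20, 9.11 and 9.32 with IL2. In Treg the arrays with TGFb alone overlapped those with TGFb and IL6, whereas in T-effector cells they lay between those with TGFb and IL6 and those without TGFb. The difference in Treg was 1.06 ± 0.14 (2.09-fold, adjusted p = 1.93e-05) with TGFb and IL6 against IL6 and 1.05 ± 0.15 (2.08-fold, adjusted p = 6.86e-05) with TGFb against IL2. In T-effector cells it was 1.19 ± 0.14 (2.28-fold, adjusted p = 5.56e-06) with TGFb and IL6 against IL6, and 0.50 with TGFb against IL2 did not pass (adjusted p = 0.0742). Of 2 other Ski probes, the brighter gave 1.28 ± 0.15 and 1.05 ± 0.17 in Treg, and the dim one gave 0.30 ± 0.11 and 0.41 ± 0.12.

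Tgif1, a homeodomain corepressor of Smad2 and Smad3 (chr17:69124628-69124687, mm7, minus strand), was 7.57, 7.83, 7.39 and 7.44 in Treg with TGFb and IL6, 7.41, 7.50 and 7.49 with TGFb, 6.93, 6.92 and 6.91 with IL6, and 7.00, 7.14 and 7.09 with IL2. It rose in Treg by 0.63 ± 0.12 (1.54-fold, adjusted p = 0.000839) with TGFb and IL6 against IL6, a call lost without slide E (0.62, adjusted p = 0.139). With TGFb against IL2 it rose by 0.41 ± 0.13 (1.33-fold, adjusted p = 0.0456), a call lost without slide B, without slide E and on leaving out any 1 of 10 of the 13 arrays. It was also lost without the dye term, with flagged spots kept, without background subtraction and with the slide as a block. In T-effector cells its arrays spanned 7.06 to 7.46 with TGFb and IL6 and 6.97 to 7.17 with IL6, and 0.26 did not pass (adjusted p = 0.182).

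Adding IL6 to TGFb raised 4 of the 9 inhibitors in T-effector cells (7.49% of all genes called, 4.26% upwards) and 1 in Treg (5.60% called, 2.85% upwards). In T-effector cells Ldlrad4 rose by 1.41 ± 0.17 (2.67-fold, adjusted p = 6.62e-06), Smad7 by 1.34 ± 0.20 (2.53-fold, adjusted p = 9.51e-05), Ski by 0.75 ± 0.14 (1.68-fold, adjusted p = 0.00154) and Skil by 0.54 ± 0.11 (1.45-fold, adjusted p = 0.00314). The Ski and Skil calls were lost without slide B (adjusted p = 0.0558 and 0.0791), and that of Skil also without slide E (0.46, adjusted p = 0.0562). The differences kept their sign on each shared slide: for slides E, B and D Ldlrad4 gave 1.38, 1.53 and 1.33, and Smad7 gave 1.08, 1.30 and 1.13. In Treg the 1 call was Smad7, at 0.71 ± 0.20 (1.64-fold, adjusted p = 0.034), with 0.59, 0.79 and 0.35 on slides E, B and D, and it was lost without slide B (0.47, adjusted p = 0.634), without slide E, and on leaving out any 1 of 5 single arrays.

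**Figure D3:**
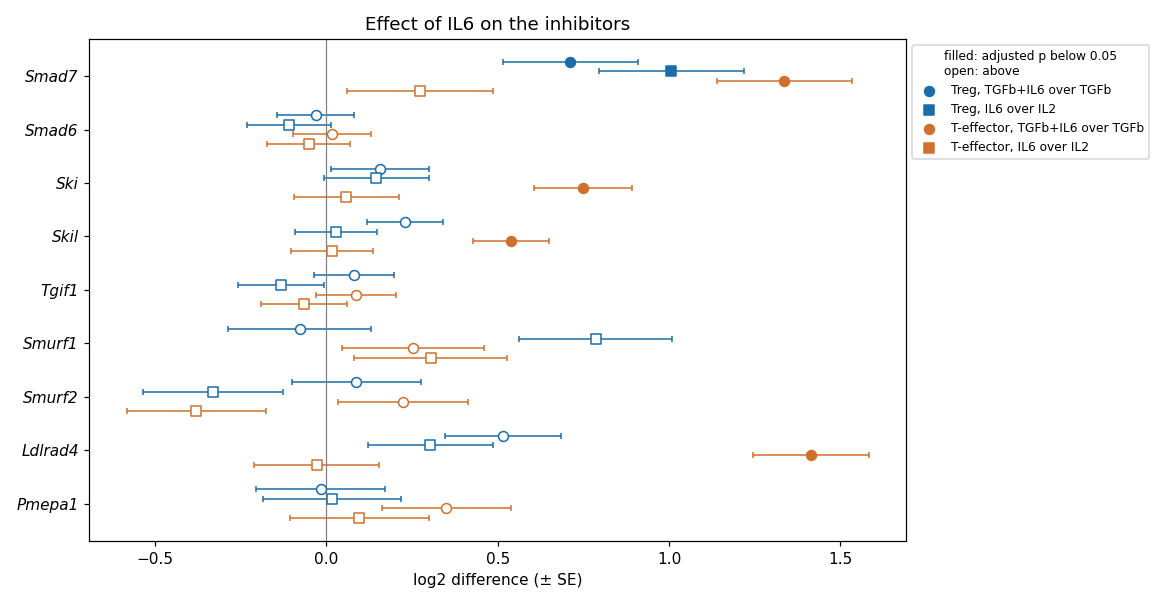
Difference in log2 intensity due to IL6, with TGFb present and absent, for each of the 9 inhibitors in Treg and T-effector cells; points are fitted differences (filled where the adjusted p is below 0.05) and bars are standard errors. With TGFb present the fitted differences of Ldlrad4 and Smad7 are 1.41 and 1.34 in T-effector cells and 0.52 and 0.71 in Treg. Without TGFb the Smad7 difference is 1.01 in Treg. Tested directly through the ratio of Treg to T-effector, the IL6 effect differed between the cell types for 0 of the 9 in the main fit, with or without TGFb.

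The ratio of Treg to T-effector signal on each array sets the cell types against each other within an array. With TGFb alone 5 of the 9 were higher in Treg (5.97% of all genes called, 4.15% upwards): Ldlrad4 by 1.78 ± 0.15 (adjusted p = 5.09e-05), Pmepa1 by 0.78 ± 0.18 (0.0281), Skil by 0.70 ± 0.10 (0.00184), Smad7 by 0.66 ± 0.11 (0.00468) and Ski by 0.58 ± 0.13 (0.0259). The Ski and Pmepa1 calls were lost without any one of the 3 TGFb arrays, and that of Smad7 without array 3 of TGFb. All 3 were lost without slide B (adjusted p = 0.157, 0.129 and 0.0675 for Ski, Pmepa1 and Smad7). All 3 were also lost with flagged spots kept in the background fit, which gave 0.49, 0.45 and 0.34 (adjusted p = 0.104, 0.483 and 0.192). The Ski call was also lost with the slide as a block (0.49, adjusted p = 0.0526) and with median centring. Over all probes, the second Ldlrad4 probe gave 0.38 with TGFb and did not pass. Of the 3 Ski probes 1 passed, and the lowest gave 0.23. Both Skil probes passed, the second at 0.40. With TGFb and IL6, 2 of the 9 were higher in Treg (5.84% called, 3.50% upwards), Ldlrad4 by 0.88 ± 0.13 (adjusted p = 0.00242) and Skil by 0.39 ± 0.09 (0.0223). The Skil call was lost without any one of the 4 arrays of TGFb and IL6, without slide B (adjusted p = 0.224), without the dye term (adjusted p = 0.0549) and with median centring (adjusted p = 0.489). With TGFb and IL6 the second Skil probe gave 0.27 and did not pass over all probes, whereas the second Ldlrad4 probe gave 0.36 and passed. Smurf1 did not pass by its tested probe, at 0.40 with TGFb and 0.07 with TGFb and IL6. Its second probe passed over all probes in both, at 0.42 and 0.39. With IL6 alone (5.84% called, 3.76% upwards) 1 of the 9 was higher in Treg, and with IL2 alone (11.0% called, 7.41% upwards) 1 of the 9. Both were Smad7, by 1.12 ± 0.11 (2.18-fold, adjusted p = 0.000192) and 0.39 ± 0.11 (0.0413). The IL2 call was lost on leaving out any 1 of 8 of the 13 arrays, without slide B (0.38, adjusted p = 0.104) and without the dye term. It was also lost with flagged spots kept (0.16, adjusted p = 0.46) and with median centring (0.09, adjusted p = 0.714). With IL6 alone, Ldlrad4 (0.55) and Smurf1 (0.54) did not pass. Both did with the spatial trend removed (0.68, adjusted p = 0.000204, and 0.48, adjusted p = 0.00731), with Agilent's signals and without slide E. Their second probes gave 0.07 and 0.18 and did not pass.

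Array by array, the Ldlrad4 ratio was 1.43, 0.80, 0.66 and 0.64 with TGFb and IL6, 2.42, 1.76 and 1.38 with TGFb, 0.82, 0.77 and 0.28 with IL6, and 0.16, 0.04 and 0.25 with IL2. The Smad7 ratio was -0.10, -0.04, 0.16 and 0.12 with TGFb and IL6, 0.39, 0.46 and 0.93 with TGFb, 1.02, 0.74 and 1.42 with IL6, and 0.23, 0.85 and 0.28 with IL2. The tested Skil probe was above 0 on 13 of 13 arrays, although centring each array on its median in place of loess took its mean ratio to -0.47 with IL6 and -0.45 with IL2. The second Skil probe was below 0 on all 3 IL2 arrays (-0.24, -0.37 and -0.20) and on 2 of 3 IL6 arrays (-0.21 and -0.25). The Ldlrad4 ratio was highest with TGFb alone apart from 1 overlapping array with TGFb and IL6, and the Smad7 ratio lay near 0 on the arrays with TGFb and IL6.

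The difference in these ratios between conditions was tested directly. TGFb minus IL2 gave 1.56 ± 0.21 for Ldlrad4 (adjusted p = 0.00342), the 1 call among the 9 tested probes (5.87% of all genes called, 2.36% upwards). The Ldlrad4 value was 1.10 when flagged spots were also used to fit the background (adjusted p = 0.218). The second Ldlrad4 probe gave 0.48 and did not pass over all probes. For Skil the tested probe gave 0.39 and did not pass, whereas the second probe gave 0.64 and passed over all probes. TGFb and IL6 minus IL6 gave -1.09 ± 0.14 for Smad7 (adjusted p = 0.00439), again the 1 call (3.99% called, 2.48% downwards). It was -1.10 (adjusted p = 0.093) without slide B, -0.87 (adjusted p = 0.0555) without slide E and -0.59 (adjusted p = 0.0918) with median centring. In a comparison added after the data were seen, TGFb and IL6 minus TGFb, all 9 values were negative with a median of -0.33, those of Smad6, Smurf2 and Tgif1 turning positive under some alternatives, and none passed (limma; 0.291% of all genes called; 4 of the 9 had an unadjusted p under 0.05). With the slide as a block, Ldlrad4 (-0.87, adjusted p = 0.0271) and Smad7 (-0.61, adjusted p = 0.0449) passed, as they did with the spatial trend removed (-0.85, adjusted p = 0.00183, and -0.63, adjusted p = 0.0294).

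**Figure D4:**
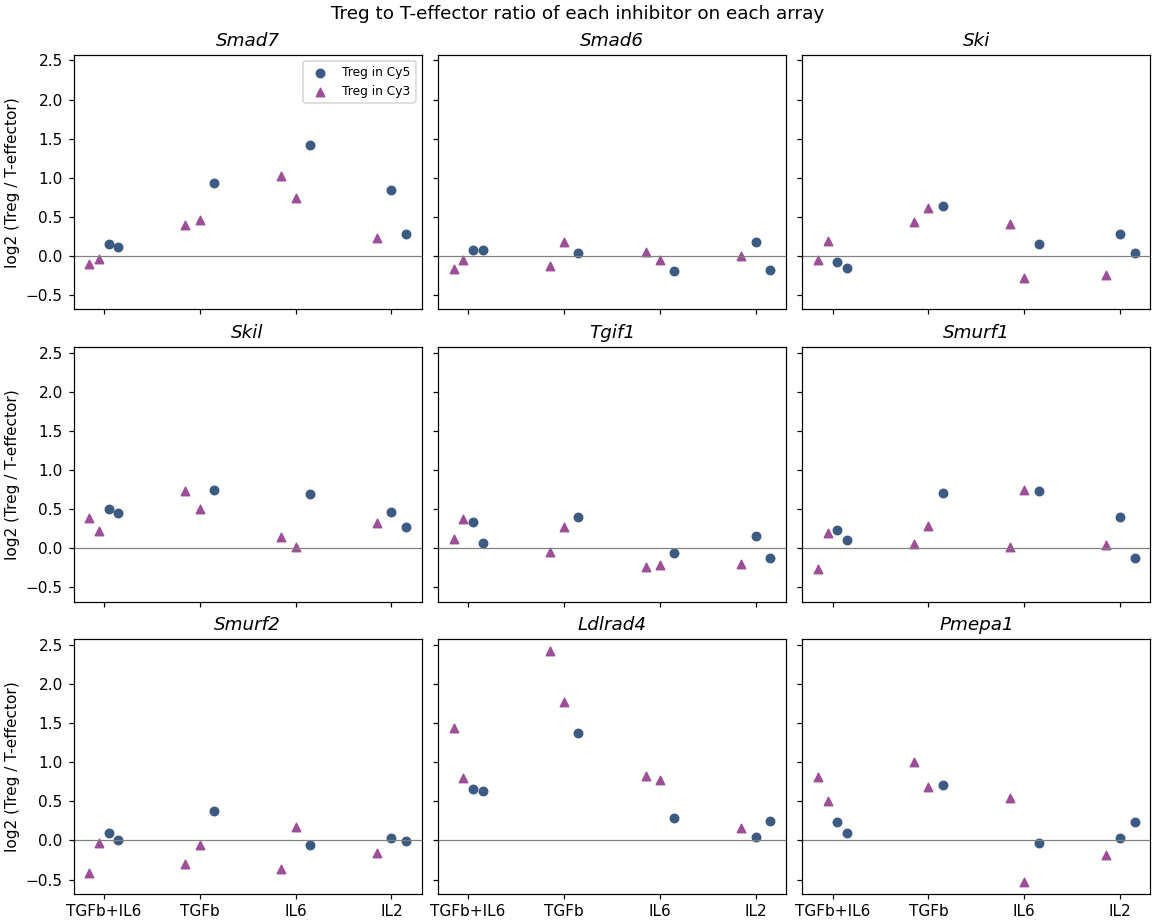
Log2 ratio of Treg over T-effector signal on each array for each of the 9 inhibitors, with TGFb and IL6, TGFb, IL6 and IL2; points are arrays, their shape gives the dye of the Treg sample, and the line at 0 marks equal signal. The Ldlrad4 points are highest with TGFb (1.38 to 2.42), and the Smad7 points lie between -0.10 and 0.16 with TGFb and IL6.

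TGFb and IL2 arrays met only on slide D and TGFb with IL6 and IL6 arrays only on slide E, so the slide was also fitted as a block. Ldlrad4 then gave 2.70 in Treg and 2.38 in T-effector cells with TGFb and IL6 against IL6, and 2.71 and 1.15 with TGFb against IL2. Smad7 gave 0.78 and 1.87, and 1.01 and 0.74 (adjusted p = 0.0282 for the last). Within slide D the TGFb against IL2 difference in Treg was 2.56 for Ldlrad4, 1.60 for Skil, 1.09 for Pmepa1, 1.09 for Smad7 and 0.85 for Ski. Within slide A, the only slide that IL6 and IL2 arrays shared, Smad7 with IL6 against IL2 differed by 0.68 in Treg and 0.17 in T-effector cells. Within slide E the Treg difference between TGFb with IL6 and IL6 was 2.84 for Ldlrad4, 1.98 for Skil and 0.42 for Smad7.

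**Figure D5:**
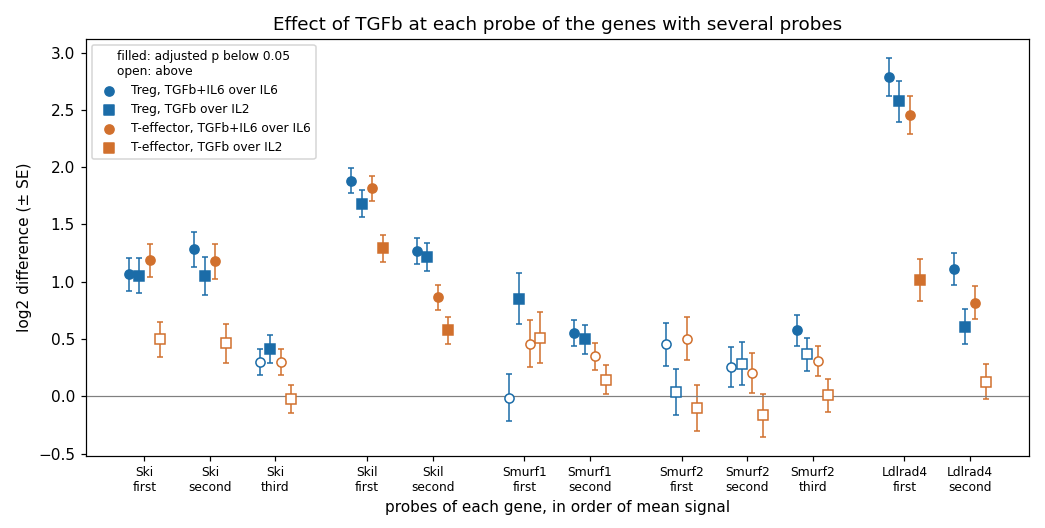
Log2 difference due to TGFb, with IL6 present and absent, in Treg and T-effector cells at each probe of the 5 inhibitors that have several; bars are standard errors, points are filled where the p adjusted over all probes is below 0.05, and the first probe of each gene is the one tested. Both Skil probes are above 0, and the dimmer Ldlrad4 probe lies at 1.11 where the tested one lies at 2.79.

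Other genes of the pathway are given as counts, beside 10.1% of all genes called in Treg with TGFb and IL6 against IL6, 7.79% with TGFb against IL2, and 11.2% and 4.31% in T-effector cells. Of 9 tested genes that carry the signal, 3 rose in Treg in both comparisons with TGFb: Tgfbr1, the type I receptor (1.58 ± 0.17 with TGFb and IL6 against IL6, 1.79 ± 0.18 with TGFb against IL2), Tgfb3, a ligand (1.01 ± 0.14 and 0.78 ± 0.15), and Tgfbr2, the type II receptor (0.79 ± 0.20 and 0.76 ± 0.22). In T-effector cells 4 and 1 of these 9 rose in the same comparisons. Of 11 other negative regulators, 1 rose in Treg with TGFb against IL2 (Bambi, a decoy receptor, 0.50 ± 0.14), 1 fell with TGFb and IL6 against IL6 (Tgif2, a relative of Tgif1, -0.63 ± 0.14), and in T-effector cells 1 fell with TGFb and IL6 against IL6 (again Tgif2) and 0 passed with TGFb against IL2, counts that lie near those shares. Of 4 genes that lift inhibition, 1 passed, Usp15, a deubiquitinase, with TGFb and IL6 against TGFb in T-effector cells (0.69 ± 0.15), where 7.49% of all genes were called. Of 10 genes that TGFb is known to induce, 2 rose and 3 fell in Treg with TGFb against IL2, among them Itgae, an integrin subunit (2.46 ± 0.25), Klf10, an early TGFb response factor (1.16 ± 0.16), and Junb (-1.14 ± 0.21). Of 8 tested genes of the BMP branch, 3 rose and 1 fell in Treg in both comparisons, with Bmpr2, a BMP receptor, rising by 1.55 ± 0.19 and 1.46 ± 0.21. Of 6 genes that TGFb is known to repress in T cells, 1 rose and 3 fell in Treg with TGFb and IL6 against IL6, 1 rose and 2 fell with TGFb against IL2, and 3 fell in T-effector cells in each comparison.

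Markers of other cells differed between groups. The B cell markers summed to 510 to 738.6 intensity units with TGFb and IL6, 583.8 to 725.2 with TGFb, 738.7 to 1311 with IL6 and 1065 to 2042 with IL2 in Treg channels, and to 549.7 to 1581, 593.9 to 1386, 819.7 to 1015 and 2050 to 2112 in T-effector channels. Of the 6, 2 fell in Treg and 4 in T-effector cells with TGFb against IL2 (7.79% and 4.31% of all genes called in either direction), and Pax5 was never well above background in 5 of the 8 groups. Of 6 CD8 and NK cell markers, 2 rose in Treg with TGFb against IL2 (3.66% of all genes called upwards), Cd8a and Klrd1 (1.82 ± 0.41 and 1.28 ± 0.24). The 4 tested myeloid and dendritic cell markers summed to 296.3 to 680.9 and the 3 tested stromal and endothelial cell markers to 257.6 to 382.1 over all groups. The part of these other cells in the differences of the inhibitors was not tested.

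Across the 26 channels, which share arrays, dyes and conditions, Pearson correlations describe which genes followed an inhibitor. Ldlrad4 was most like Ncmap (0.98), Acsbg1 (0.978) and Gata1 (0.973), Skil most like Ctsw and Pdlim5 (0.978 each) among named genes, and Ski most like Ctsw (0.958). Smad7 was most like Entpd1 (0.947), an ectonucleotidase found on regulatory T cells. Pmepa1 was most like Plod2 (0.972), and of the 8 inhibitors above background in all 26 channels, which leaves out Smad6, Smurf2 had the lowest best match, Ap5m1 (0.791). Among the inhibitors themselves Skil and Ldlrad4 correlated at 0.942, Ski and Skil at 0.937, and Ldlrad4 and Pmepa1 at 0.936.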

How the data were processed

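The files are scanner output of 13 two-colour Agilent arrays. Per the file headers, spot intensities were extracted with Agilent Feature Extraction 9.5.1.1, and the log10 ratio of red over green in the same files was computed by that software. The authors' deposited table of log2 values, 1 per probe and condition, was used only as a side check, since its scaling and centring are not given in the sources used here.

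Mean and background intensities were corrected with normexp (offset 50, fitted without spots flagged for local background) and normalized by loess within arrays, in limma 3.58.1 under R 4.3.3. The 1639 control spots were left out. Of the probes, 28923 cleared background in 3 or more of the 26 channels and entered, and each gene was represented by the probe with the highest mean signal (19901 genes, of which 135 lacked up to 3 arrays). Ratios were fitted with 4 conditions and a dye term (8 residual degrees of freedom). Channels were fitted separately after Aquantile normalization with an intraspot correlation of 0.4507 (17 degrees of freedom). Benjamini-Hochberg adjustment ran over all genes, with calls at 0.05. The code was tested on simulated data.

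The members, lists and tests were chosen with earlier results of these data known. Every member is named. Of the other lists only some genes past the threshold are named, and the genes that TGFb is known to repress are given as counts alone. TGFb and TGFb with IL6 arrays 1 to 3 share a slide and a dye by their labels and files, and same-numbered arrays deviated together (correlations of 0.28 to 0.85), so a replicate block was also fitted. The number of arrays limits the precision. Tried alternatives cover the background, normalization, filter, probes, dye, slide, spatial trend, and leaving out arrays or slides.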

Additional observations from a re-analysis of the deposited data

Results flagged for a closer look

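For 3 results the difference between a pair of effects passed its own test. The Ldlrad4 response to TGFb in T-effector cells was larger with IL6 than without it by 1.44 ± 0.25 on the log2 scale (adjusted p = 0.00281). The Ldlrad4 ratio of Treg over T-effector differed between TGFb and IL2 by 1.56 ± 0.21 (adjusted p = 0.00342). The Smad7 ratio differed between TGFb with IL6 and IL6 by -1.09 ± 0.14 (adjusted p = 0.00439). All 3 calls were lost under some alternatives. With flagged spots kept in the background fit the Ldlrad4 values were 1.02 and 1.10 (limma, adjusted p = 0.197 and 0.218). The second Ldlrad4 probe gave 0.69 and 0.48 and did not pass. The Smad7 value was -1.10 without slide B (adjusted p = 0.093) and -0.59 with median centring (adjusted p = 0.0918). Without slide E it was -0.87. The causes were not tested. No array stood apart by a Dixon gap above 0.829 in any of 27 sets of 4 values (Treg level, T-effector level and ratio of each of the 9 genes with TGFb and IL6), where chance flags about 1 set in 20.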

How the results depend on the processing

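Over all comparisons 39 calls were made on the 9 inhibitors, and 23 of them held under each applicable one of the 27 alternatives, 7 of 9 for Ldlrad4, 6 of 11 for Smad7, 5 of 7 for Skil, 3 of 5 for Ski, 2 of 4 for Pmepa1, 0 of 2 for Tgif1 and 0 of 1 for Smurf1. None of the 39 changed direction. Leaving out 1 array kept 32 to 38 of them, leaving out slide B (an alternative added after seeing the data) 28, and leaving out slide E (likewise added) 31. Dim probes near background limit what the fits can show, as for Smad6.

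The counts of inhibitors past the threshold that moved by over 1.5 times were as follows. Smaller moves, such as 7 to 5 for TGFb against IL2 in Treg without slide E, and 5 to 7 for TGFb and IL6 against IL6 in T-effector with the slide block, are not listed. Treg against T-effector with IL2 (1): 0 without the dye term, 0 with flagged spots kept in the background fit, 2 with Agilent's processed signals, 2 with median centring, 2 with the slide as a block, 3 with the spatial trend removed, 0 without slide B and 2 without slide E. Treg against T-effector with TGFb (5): 2 with flagged spots kept and 2 without slide B. Treg against T-effector with TGFb and IL6 (2): 1 without the dye term, 1 with median centring and 1 without slide B. Treg against T-effector with IL6 (1): 2 with flagged spots kept, 3 with Agilent's signals, 2 without background subtraction, 3 with median centring, 2 with the stricter filter, 2 with the slide block, 3 with the spatial trend removed and 3 without slide E. TGFb minus IL2 in the ratio (1): 0 with flagged spots kept, 2 with Agilent's signals, 8 with median centring and 2 without slide E. TGFb and IL6 minus IL6 in the ratio (1): 2 with Agilent's signals, 3 with median centring (Skil, Ldlrad4 and Tgif1, without Smad7), 2 with the spatial trend removed, 0 without slide B and 0 without slide E. TGFb and IL6 minus TGFb in the ratio (0): 1 with Agilent's signals, 2 with the slide block and 2 with the spatial trend removed. IL6 against IL2 in Treg (1): 0 without the dye term, 2 with Agilent's signals and 0 without slide E. TGFb and IL6 against TGFb in Treg (1): 2 with the slide block, 2 with the spatial trend removed, 2 with the replicate block, 0 without slide B and 0 without slide E. TGFb effect with IL6 minus without in T-effector (1): 0 with flagged spots kept and 3 with the slide block. TGFb and IL6 against TGFb in T-effector (4): 2 without slide B. The causes were not tested.

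On leaving out 1 array the counts ranged over 0 to 2 for Treg against T-effector with IL2, 2 to 5 with TGFb, 1 to 3 with TGFb and IL6 and 1 to 2 with IL6. They ranged over 1 to 2 for TGFb minus IL2 in the ratio and 1 to 1 for TGFb and IL6 minus IL6. In Treg they were 5 to 7 for TGFb against IL2, 6 to 6 for TGFb and IL6 against IL6, 0 to 1 for TGFb and IL6 against TGFb and 0 to 1 for IL6 against IL2. In T-effector cells they were 3 to 4, 4 to 6, 4 to 4 and 0 to 0 for these comparisons, and 1 to 2 for the TGFb effect with IL6 minus without.

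Median centring reversed Ski in the ratio of Treg over T-effector to -0.80 with IL2 (adjusted p = 0.0222) and -0.75 with IL6 (adjusted p = 0.0316), where the median over all genes became -0.30 and -0.32; the other ratios had smaller medians (0.04 with TGFb, -0.02 with TGFb and IL6). The replicate block kept 5 of 5 applicable calls and added Ldlrad4 in Treg with TGFb and IL6 against TGFb (0.52, adjusted p = 0.0468), and it changed no other call.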

Other observations

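The authors' deposited table gives 1 log2 value per probe and condition for Treg against T-effector cells. Its values correlate with the mean deposited log ratios of the same condition at 0.85 to 0.899 over probes, and its medians lie between -0.0831 and -0.016, so its direction follows from the files while its centring and replicate weighting stay unknown. In that table Ldlrad4 stood at 1.01 with TGFb and IL6, 1.95 with TGFb, 1.02 with IL6 and 0.29 with IL2. Smad7 stood at 0.03, 0.79, 1.34 and 0.60 in the same order of conditions in the authors' deposited table. Pmepa1 stood there at 1.08 with TGFb and -0.50 with IL6.

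In the comparison of IL6 minus IL2 in the ratio of Treg over T-effector, added after the data were seen, no gene of 19901 passed by limma. Smad7 had 0.73 (unadjusted p = 0.00056, adjusted p = 0.619) and Smurf1 0.48 (unadjusted p = 0.0455), the 2 of the 9 under an unadjusted 0.05.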
